A study of Mus musculus with 14 samples.

Results

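Spermatogonia (Spg), the mitotic and premeiotic germ cells of the testis, were compared between mice lacking the DNA methyltransferase DNMT3C (Dnmt3C KO/KO) and wild-type mice, over all genes and all subfamilies of transposable elements (TE). The libraries were chosen by their labels, and 6 of the 14 in the series are spermatogonia, 3 Dnmt3C KO/KO and 3 wild-type. Per the study's methods, the mouse strains were bred onto a C57Bl6/J background. The cells were sorted from testes at postnatal day 14 as DAPI-negative, β2-microglobulin-negative and Ep-CAM-positive. The methods mention littermates, without stating that these libraries of both genotypes came from the same litters. The 4 wild-type spermatocyte (Spc) libraries, sorted by DNA content from mice older than 20 days, were used only as a second reference level. No treatment was given. How many animals went into a library, and where the allele is altered, are not given in the sources used here.

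DNMT3C is a rodent-specific paralog of DNMT3B that acts in fetal male germ cells, where it methylates promoters of evolutionarily young retrotransposons such as L1 and IAP elements. Promoter methylation of these elements is then kept through the mitotic divisions of spermatogonia, and without it their transcription can resume. Many genes carry such elements in their introns or beside their starts, and long terminal repeats (LTR) hold promoters of their own. In a juvenile testis spermatogonia lie beside Sertoli cells, the somatic nurse cells of the tubule, and beside the first spermatocytes, so that a sort can take up transcripts of either. In bulk samples, fewer cells of a type and less RNA per cell cannot be told apart.

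The promoter windows of 3 genes that rose in Dnmt3C KO/KO Spg show how differently these starts are built (RefSeq, GRCm38.p6, 250 bases before to 50 after the start, each written 5′ to 3′ on the gene's strand). The window of Eps8l1, chr7:4460447-4460746 on the plus strand, is shown because 256 of its 300 bases, in capitals, lie in an IAPLTR1_Mm copy of the opposite strand.
Eps8l1: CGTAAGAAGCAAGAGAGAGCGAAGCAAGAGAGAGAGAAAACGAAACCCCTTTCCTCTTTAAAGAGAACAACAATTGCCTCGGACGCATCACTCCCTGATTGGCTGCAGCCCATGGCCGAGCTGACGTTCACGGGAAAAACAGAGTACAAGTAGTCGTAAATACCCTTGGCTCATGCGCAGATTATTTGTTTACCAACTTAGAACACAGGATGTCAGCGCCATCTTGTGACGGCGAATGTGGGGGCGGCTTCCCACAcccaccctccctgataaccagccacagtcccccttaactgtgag
The window of Ky, chr9:102505888-102506187 on the plus strand, is shown as a CpG-rich start with no young copy inside the gene, and its 31 CpG are in capitals.
Ky: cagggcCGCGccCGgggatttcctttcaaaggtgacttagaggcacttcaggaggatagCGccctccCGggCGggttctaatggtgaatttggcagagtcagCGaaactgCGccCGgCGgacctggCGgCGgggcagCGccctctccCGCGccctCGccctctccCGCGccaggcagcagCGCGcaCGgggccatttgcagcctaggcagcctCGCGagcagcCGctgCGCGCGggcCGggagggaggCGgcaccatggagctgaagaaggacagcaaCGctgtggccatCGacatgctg
The window of Gc, chr5:89457849-89458148 on the minus strand, is shown as the contrast, since it holds 0 CpG and therefore no capitals.
Gc: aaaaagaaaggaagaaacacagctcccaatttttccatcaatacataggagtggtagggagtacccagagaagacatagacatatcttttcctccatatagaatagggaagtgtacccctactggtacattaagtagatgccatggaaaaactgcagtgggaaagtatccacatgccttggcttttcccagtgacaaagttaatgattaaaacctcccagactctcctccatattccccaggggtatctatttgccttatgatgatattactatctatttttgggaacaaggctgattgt

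Total counts per library ran from 46676196 to 49332778 in Dnmt3C KO/KO and from 40555726 to 47620356 in wild-type Spg, and TE subfamilies took 3.60% to 5.44% and 2.28% to 3.52% of them. Dnmt3c itself, ENSMUSG00000082079.2 on chromosome 2, had 2.34, 1.21 and 1.42 CPM (counts scaled by TMM to a common library size) in the Dnmt3C KO/KO and 1.88, 1.61 and 1.13 in the wild-type libraries. The groups overlapped (log2 fold change 0.10 ± 0.38 SE, edgeR adjusted p = 0.9996), so the count of this low gene did not mark the genotype, and without the structure of the allele it is no check of the labels. A gene or subfamily was called at an adjusted p under 0.01 by edgeR. Of 20659 genes tested 9 were called (0.0436%), 8 higher (0.0387%) and 1 lower (0.00484%) in Dnmt3C KO/KO, and 1509 (7.3%) had an unadjusted p under 0.05. With same-numbered libraries taken as blocks 108 genes were called (0.523%), 27 higher (0.131%) and 81 lower (0.392%), and 2105 (10.2%) had an unadjusted p under 0.05. The labels do not give this pairing, which was taken from the same counts, so every blocked p-value depends on an unverified choice. DESeq2 called 523 of the same genes (2.53%), 138 higher (0.668%) and 385 lower (1.86%). The called genes were thus mostly higher by edgeR without the block and mostly lower by either other fit. The 3 libraries of one genotype lay above all 3 of the other in 2503 genes (12.1%), higher in Dnmt3C KO/KO in 1041 (5.04%) and lower in 1462 (7.08%).

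The cell content of the libraries was read from marker lists, summed per library on a CPM scale set across the 10 Spg and wild-type Spc libraries. Markers of undifferentiated spermatogonia summed to 988, 588 and 868 in the Dnmt3C KO/KO and 956, 643 and 761 in the wild-type libraries, against 155 to 298 in Spc. Markers of differentiating spermatogonia, Kit and Dmrt1 among them, summed to 2027 to 2516 and 1669 to 2285, and to 801 to 1624 in Spc. Defining spermatogonial markers were thus present in all 6 libraries at like levels in both genotypes, and no member of either list was called. Early meiotic markers overlapped too, at 3417 to 4711 in Dnmt3C KO/KO and 4542 to 4778 in wild-type Spg, and were nearly as high as in Spc, at 4926 to 5803. The median of these 30 genes was 87.5% to 130% of the mean wild-type Spc level in every Spg library, so the sorted cells carried early meiotic transcripts beside spermatogonial ones. The gate genes overlapped, with Epcam at 123, 162 and 185 CPM in Dnmt3C KO/KO and 103, 108 and 165 in wild-type, and B2m at 17.1, 7.99 and 9.30 and at 16.6, 14.1 and 6.99. Within each same-numbered pair Epcam was higher in Dnmt3C KO/KO, B2m not in each, and neither was called.

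Pachytene markers, genes switched on in later meiotic prophase, set the libraries apart. Their sum was 918, 1102 and 1369 in Dnmt3C KO/KO and 1588, 3858 and 1353 in wild-type Spg, so wild-type replicate 2 stood far above the other 5, and wild-type Spc reached 17060 to 33490. The pachytene sums of the genotypes overlapped. Spermatid markers were low and did not overlap, at 7.15, 7.88 and 7.69 in Dnmt3C KO/KO and 21.1, 100 and 9.10 in wild-type Spg, with 3 of the 20 genes, the protamine Prm1 among them, at 0 in all 6 libraries. Sertoli markers went with the replicate number instead, at 2938, 1225 and 962 in Dnmt3C KO/KO and 2286, 1245 and 694 in wild-type Spg, and the genotypes overlapped. Clu, a secreted chaperone of Sertoli cells, had 1111, 444 and 310 CPM in Dnmt3C KO/KO and 867, 488 and 233 in wild-type. Leydig, stromal, macrophage, endothelial, erythroid and simple epithelium lists summed to at most 70.9 in any Spg library. Of these only the endothelial sum did not overlap, at 23.3 to 29.1 in Dnmt3C KO/KO against 22.6 to 22.9 in wild-type, and none of its 9 tested genes was called.

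**Figure D1:**
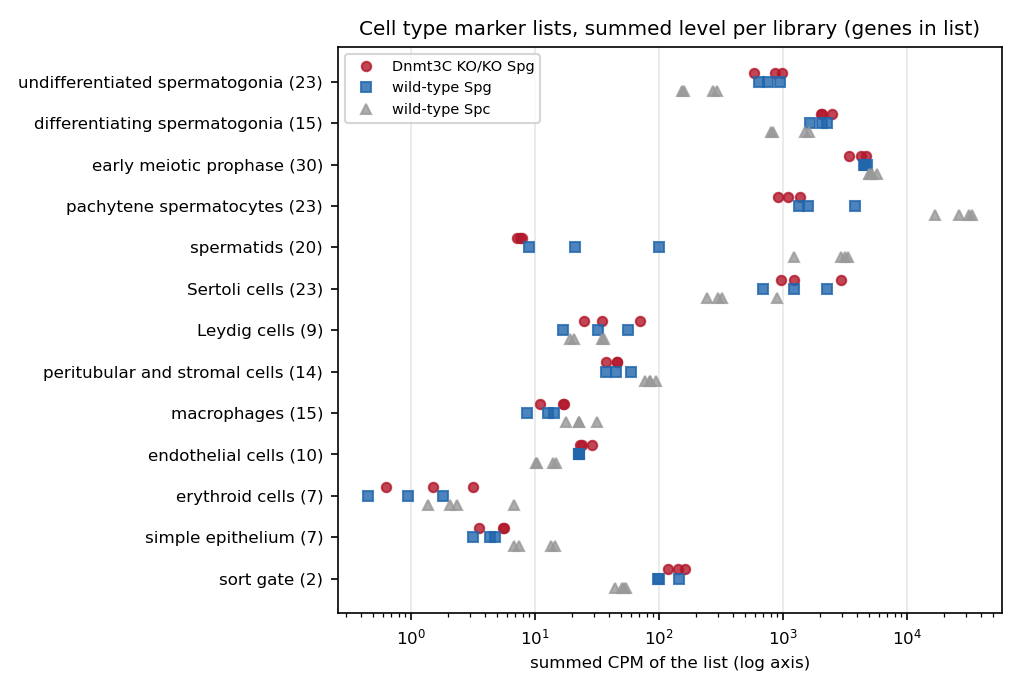
Summed CPM of 13 marker lists (rows, with the number of genes) in each library, on a log axis and a scale set across 10 libraries; circles are Dnmt3C KO/KO Spg, squares wild-type Spg and triangles wild-type Spc. The pachytene sum of wild-type replicate 2, 3858, lies between the other Spg libraries and the Spc libraries, while the spermatogonial sums of both genotypes overlap.

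The 8 genes that rose by edgeR were at most at 1.28 CPM in any wild-type Spg library. Sntb1, which encodes the adaptor β1-syntrophin of the dystrophin complex, had 9.96, 10.6 and 6.96 CPM in Dnmt3C KO/KO and 0.317, 0.298 and 0.299 in wild-type (log2 fold change 4.90 ± 0.33 SE, edgeR adjusted p = 0.00245). Eps8l1, an EPS8-like adaptor of actin signalling, had 8.17, 9.24 and 9.15 against 1.01, 0.819 and 0.598 CPM (3.44 ± 0.32, adjusted p = 0.00655). Ky, a muscle protein named after kyphoscoliosis in mice, had 11.7, 9.09 and 11.3 against 0.803, 0.968 and 1.28 CPM (3.39 ± 0.31, adjusted p = 0.00655). In each of these 3 genes every Dnmt3C KO/KO library was several times above every wild-type library.

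For the other 5 the wild-type libraries held at most 3 counts each, so their folds are lower bounds against 3 counts per library. Pkhd1, which encodes fibrocystin of kidney and bile duct cilia, had 551, 479 and 387 counts in Dnmt3C KO/KO and 0, 2 and 0 in wild-type, at least 145-fold higher (edgeR adjusted p = 0.00352). Clvs1, a lipid-binding clavesin of neurons, had 552, 375 and 282 against 1, 0 and 3 counts, at least 123-fold higher (adjusted p = 0.0045). Gc, the vitamin D binding protein made by liver, had 343, 215 and 274 counts against 0 in all 3 wild-type libraries, at least 85.3-fold higher (adjusted p = 0.006). Clca3b, of a family of chloride channel regulators, rose at least 74.5-fold (adjusted p = 0.00778) and the pseudogene Gm6673 at least 49.0-fold (adjusted p = 0.00655). These transcripts therefore had between 94 and 552 counts in every Dnmt3C KO/KO library and next to none in wild-type.

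The block added 19 further genes to these 8, and DESeq2 called all 27. BC051019, a protein-coding gene on chromosome 7, had 9.66, 13.9 and 14.5 CPM in Dnmt3C KO/KO and 0.550, 0.248 and 0.812 in wild-type (blocked adjusted p = 0.0023). Sfi1, a centrin-binding protein of centrosomes and the most abundant of the set, had 68.9, 195 and 115 against 19.8, 33.7 and 29.3 CPM (blocked adjusted p = 0.00194). Robo2, a receptor of the axon guidance cue Slit, had 12.4, 5.64 and 4.10 against 1.12, 0.273 and 0.321 CPM (blocked adjusted p = 0.00203). Of the rest Slc15a2, a peptide transporter, Reg2, a secreted protein of the regenerating family, Apoh, a plasma glycoprotein, and Clec2g, a C-type lectin, are named below for their TE copies or their level in Spc, chosen after their values were seen. Reg2 had 259, 179 and 111 counts in Dnmt3C KO/KO and 0 in all wild-type libraries, at least 56.0-fold higher. Over the 27 genes the mean in wild-type Spg had a median of 0.110 CPM, 18 had fitted log2 fold changes of 2.19 to 6.72, and the other 9 had lower bounds of 24.9-fold to 145-fold. The edgeR calls among them fell from 8 to 3 without Dnmt3C KO/KO replicate 1, to 0 without replicate 2, to 1 without replicate 3 and to 0 without wild-type replicate 1, and 14 of the 27 were called with the block when replicate 1 of both genotypes was left out. All 27 remained higher in each of these fits.

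Most of the risers lay outside the range spanned by the wild-type populations. A mixture of pure wild-type spermatogonia and spermatocytes would have a level of each gene between the levels of both. The wild-type Spg libraries are themselves mixtures, so a library with fewer late cells than any of them can lie outside both. A place above both is therefore given as a description only. Other cell types were not sorted here, and a change in their share was read only from the marker sums above. All 8 genes, and 26 of the 27 called with the block, lay above every wild-type Spg and every wild-type Spc library. Their choice as higher than wild-type Spg already fixed their place against those libraries, and of the 1041 genes separated upward within Spg 706 (67.8%) lay above both. Sntb1 had 0 to 0.0531 CPM in the 4 wild-type Spc libraries and Eps8l1 0.106 to 0.343. Gc and Reg2 had no count in either. The exception was Apoh, with 2.84 to 3.26 CPM in Dnmt3C KO/KO Spg, at most 0.1015 in wild-type Spg and 0.797 to 8.39 in wild-type Spc. Ky came close to the edge, with 7.67 to 9.89 CPM in Dnmt3C KO/KO Spg on this scale and up to 5.74 in wild-type Spc. Scaling by library totals left the counts at 8 and 26, and of the 138 genes DESeq2 called higher 113 lay above both populations (81.9%).

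**Figure D2:**
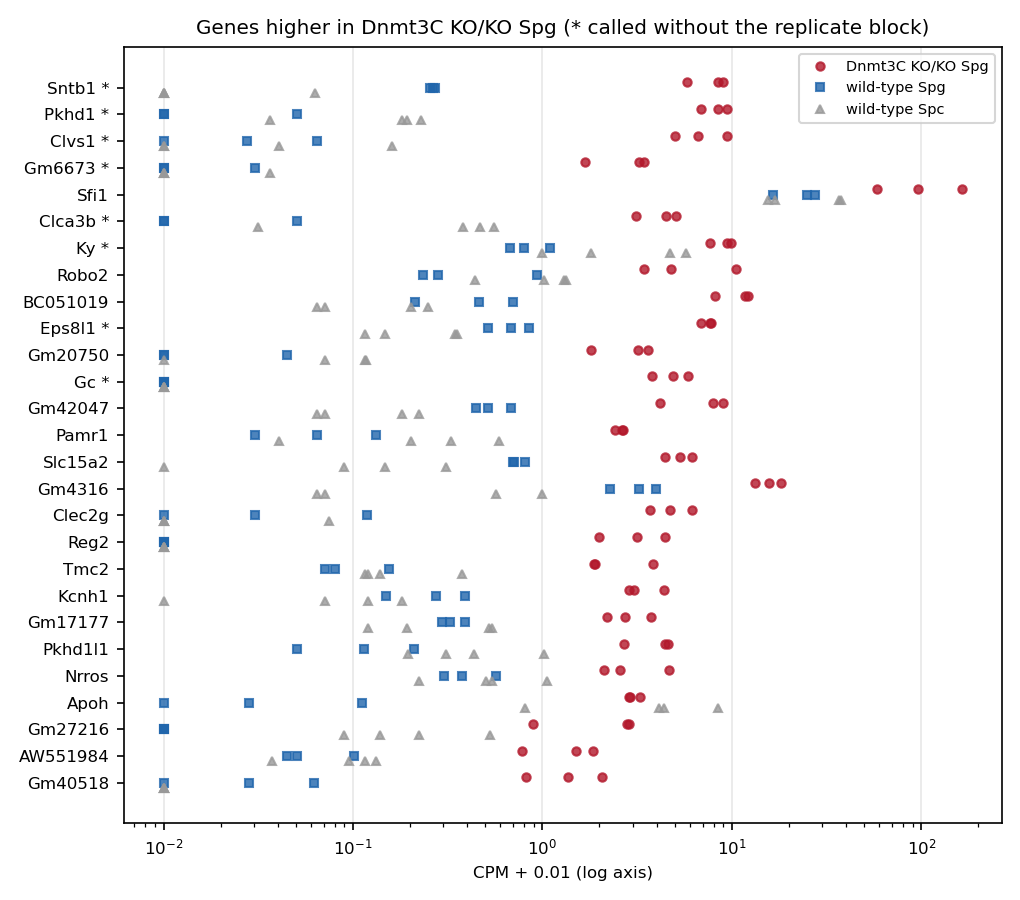
CPM plus 0.01 on a log axis and a scale set across 10 libraries, for the 27 genes higher in Dnmt3C KO/KO Spg with the replicate block, ordered by p; circles are Dnmt3C KO/KO Spg, squares wild-type Spg and triangles wild-type Spc. The circles lie to the right of all other points in every row but Apoh, whose wild-type Spc libraries reach 8.39.

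Many of the risers contain a young TE copy. Of the 27 genes 19 (70.4%) held at least 1, against 24.8% of all tested genes and 22 of the 81 genes that fell (27.2%). A copy was counted as active when its mean was at least 1 TPM in Dnmt3C KO/KO and all 3 of these libraries were above all 3 wild-type libraries (TPM over TE copies, GRCm38). Such a copy lay inside 6 of the 8 genes (75%) and 13 of the 27 (48.1%), where 2.26% of all tested genes and 1.23% of the 81 falling genes held one. Copy and gene were measured in the same libraries, so that these shares are a description and support nothing. Long genes have more room for copies (33 young copies in Pkhd1), and whether a copy drives its gene was not tested. Per the methods, reads that map to several places were counted too, and near-identical copies share such reads. The TPM of a single copy, and the name active, therefore do not show that this very copy was transcribed. In Sntb1 an L1Md_T copy of 6095 bp on the gene's strand, chr15:55670076-55676170, had 3.59, 2.34 and 1.75 TPM in Dnmt3C KO/KO and at most 0.0178 in wild-type. In Clvs1 an IAPLTR2_Mm copy on the gene's strand, chr4:9401186-9401619, had 8.51, 1.54 and 8.90 TPM and 0 in wild-type. In Gc an L1Md_T copy of 6892 bp on the gene's strand, chr5:89427585-89434476, had 3.67, 1.30 and 1.14 TPM, and at most 0.0491 in wild-type. Pkhd1 had 4 active copies, Clca3b 2, both L1Md_T on the strand opposite to the gene. Slc15a2 held IAPEz-int and IAPLTR1_Mm copies on its own strand, the latter at 71.6, 13.0 and 20.7 TPM in Dnmt3C KO/KO and 6.38, 0 and 0 in wild-type. Ky, Gm6673 and BC051019 held no young copy at all.

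The starts were compared with young copies in RefSeq windows and at the outermost GENCODE start. Of the 27 risers 18 had RefSeq promoter windows, 24 in all, and 2 windows overlapped a young copy (8.33%, against 0.563% of all 32851 windows and 0.17% of those of tested genes). In Clec2g the copy, an L1Md_T piece, had 0 TPM in all 6 libraries. In Eps8l1 it was the IAPLTR1_Mm copy chr7:4460351-4460702 printed above, with 10.5, 5.70 and 0.366 TPM in Dnmt3C KO/KO and 0 in every wild-type library, the only active copy in the windows of the 18 genes. Reg2 has its RefSeq window elsewhere, but its GENCODE gene, on the plus strand, begins at position 78395623 of chromosome 6, inside an active L1Md_T copy of the same strand, chr6:78395379-78401471. This copy had 2.13, 0.891 and 0.697 TPM in Dnmt3C KO/KO and 0 in wild-type. The windows of the risers had a median of 5.5 CpG, and those of the fallers 5, against 7 over all windows and 19 over windows of tested genes. The palindrome TGACGTCA, the cAMP response element bound by CREB proteins, read the same on both strands, was in 0 of the 24 windows, in 1.79% of all windows and in 2.77% of those of tested genes. The E-box CACGTG, also a palindrome, was in 2 of the 24 (8.33%) and in 9.54% of those of tested genes.

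Of the 22 tested pachytene markers none was called by edgeR, 3 were called lower with the block (Acr, Adam2 and Adam3) and 13 by DESeq2, and 15 separated downward, where the shares over all genes were 0.392%, 1.86% and 7.08%. Their median log2 fold change was -3.58, and -1.94 without wild-type replicate 2. Acr, the acrosomal protease acrosin, had 0.0202, 0.0624 and 0 CPM in Dnmt3C KO/KO and 3.93, 22.3 and 2.01 in wild-type, at least 151-fold lower (blocked edgeR adjusted p = 0.000589, unblocked 0.0526). Adam3, a sperm surface protein needed for passage into the oviduct, had 0.0202, 0.0416 and 0 against 2.30, 30.0 and 0.385 CPM (blocked adjusted p = 0.000748, unblocked 0.13). Adam2, its partner fertilin β, had 0.464, 0.687 and 0.637 against 24.3, 118 and 10.5 CPM (blocked adjusted p = 0.00627, unblocked 0.0493). In all 3 the groups did not overlap, and wild-type replicate 2 was the highest library. With Dnmt3C KO/KO near 0, the replicate terms of the block can take up much of the wild-type spread. The SE of Adam3 was 1.92 without the block and 0.547 with it. The blocked p-values of the falling genes therefore do not measure all of that spread. Cmtm2a, a testis-rich chemokine-like gene, was at least 137-fold lower and Fbxw10, an F-box gene, at least 113-fold. The noncoding Gm21269 was at least 756-fold lower, with 0, 0.0624 and 0 against 15.7, 116 and 9.51 CPM. The others of the 10 with the smallest blocked p were Gm49794, Gm5922, 1700123L14Rik, 4921513H07Rik, 4930405N21Rik and 4930444F02Rik, and 23 of the 81 (28.4%) were long noncoding RNAs, against 9.92% of all tested genes.

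The falling genes followed the pachytene content of the wild-type libraries. In all 81 every wild-type Spc library was above every wild-type Spg library, against 28.5% of all genes tested, and in all 81 wild-type replicate 2 was the highest of its group, against 33.6%. As a percentage of the mean wild-type Spc level, the median of the 81 genes was 1.93, 10.8 and 0.824 in wild-type replicates 1, 2 and 3, and 0.00721, 0.0139 and 0 in the Dnmt3C KO/KO libraries. The 22 tested pachytene markers gave 2.92, 10.8 and 1.36 in wild-type and 0.49, 0.363 and 0.528 in Dnmt3C KO/KO. A level below both wild-type populations, found for all 81, is also what a library with fewer late cells than any wild-type library would show, so for falling genes it does not separate a change within spermatogonia from a different sort. These cannot be told apart here. Without replicate 1 of both genotypes the block called 64 of the 81 and without replicate 2 it called 80. By edgeR without the block 1 was called with all libraries, 8 without wild-type replicate 2, 8 without wild-type replicate 3, 0 without Dnmt3C KO/KO replicate 2 or 3 and 1 without replicate 1 of either genotype, and all 81 stayed lower in these fits. With the score of the pachytene list as a covariate the median log2 fold change moved from -6.44 to -2.48 over the 36 falling genes not at a bound, and from 3.69 to 3.46 over the 18 such risers. The score contains Acr, Adam2 and Adam3, which are among the 81.

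Gm49794, a long intergenic noncoding RNA at chr17:27354111-27367492 (ENSMUSG00000116879.1), was the 1 falling gene called by edgeR without the block and departed from this pattern. It had 0.0403, 0.166 and 0.0425 CPM in Dnmt3C KO/KO and 69.9, 236 and 88.3 in wild-type (log2 fold change -10.58 ± 0.76 SE, edgeR adjusted p = 0.0026, blocked 3.59e-06). The ratio of wild-type replicate 2 to replicate 3 was 2.67, the lowest of the 81 genes, whose median was 15.9 and maximum 87.8. Wild-type Spg reached 17.2%, 57.4% and 22.3% of the mean wild-type Spc level, above the medians of the pachytene markers, though single markers reached 27.3%, 32.0% and 29.0%. With the pachytene score as a covariate it was the only gene called (log2 fold change -9.19, adjusted p = 0.00893). In spermatocytes it had 0, 0, 12 and 8 counts in Dnmt3C KO/KO and 6829 to 21500 in wild-type. This did not set it apart, since other falling genes were as low there. Gm14244, for example, had 1, 0, 12 and 27 counts in Dnmt3C KO/KO and 4844 to 9847 in wild-type. Its edgeR call was lost without Dnmt3C KO/KO replicate 2 (adjusted p = 0.0145) and without replicate 3 (adjusted p = 0.0365). Gml, a GPI-anchored LY6 family gene singled out after its values were seen, came next with a ratio of 3.10. It had 5.16, 5.49 and 5.24 CPM in Dnmt3C KO/KO and 32.6, 76.2 and 24.6 in wild-type (blocked edgeR adjusted p = 0.0063). Its level in Dnmt3C KO/KO was steady, at 4.09% to 4.35% of wild-type Spc.

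**Figure D3:**
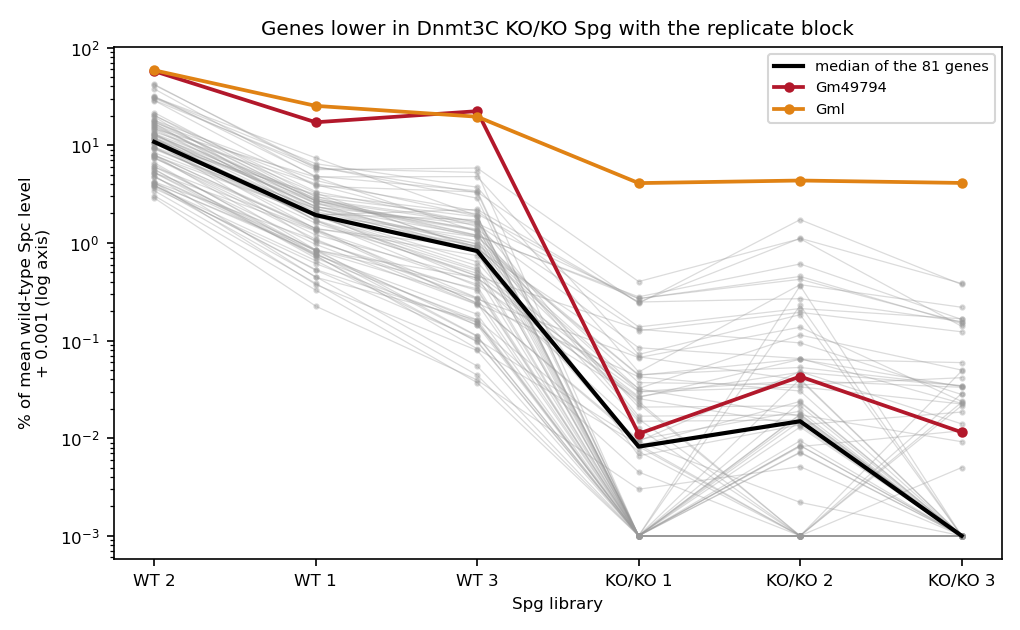
Level of the 81 genes lower in Dnmt3C KO/KO Spg with the replicate block, as a percentage of their mean wild-type Spc level plus 0.001 on a log axis, in the 6 Spg libraries; grey lines are single genes, the black line their median. The median descends from 10.8% in wild-type replicate 2 to at most 0.0139% in Dnmt3C KO/KO, while Gm49794 (red) starts at 57.4% and stays at 22.3% in wild-type replicate 3, and Gml (orange) keeps 4.09% to 4.35% in Dnmt3C KO/KO.

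Of 18 pathway lists none had a member called by edgeR, with or without the block, where 0.0436% and 0.523% of all genes were called, so that 0 is near the background and is no result about the lists. Over all genes tested the log2 fold changes had a median of 0.02. DNA methylation and demethylation genes had a median of 0.02 over 15 genes, with Dnmt1, the maintenance methyltransferase, at 537, 723 and 744 CPM in Dnmt3C KO/KO and 611, 610 and 838 in wild-type. The H3K9 and KRAB zinc finger silencing list, which acts on many of the same retrotransposons, had a median of -0.04 over 25 genes. Its scaffold Trim28 had 448, 517 and 606 CPM against 553, 654 and 534, and its methyltransferase Setdb1 had 342, 351 and 308 against 323, 302 and 309. Transcription factors whose binding is sensitive to methylation had a median of 0.02 over 16 genes and Polycomb genes of -0.06 over 18.

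Lists for responses to retroelements and damage gave no edgeR call either. RNA and DNA sensing and interferon response genes had a median of 0.05 over 25 tested of 34, and in none of the 25 did the groups separate, against 12.1% of all genes tested. Adar, the editor of double-stranded RNA, had 90.3, 101 and 92.3 CPM in Dnmt3C KO/KO and 93.4, 83.8 and 97.1 in wild-type. Targets of p53 and apoptosis genes had a median of 0.05 over 21 genes, with Mdm2 at 140, 128 and 126 against 156, 163 and 143 CPM, apart but not called (edgeR adjusted p = 0.817). The DNA damage list had a median of -0.07 over 24 genes. Its H2ax, the histone marking broken and sex-chromosome chromatin, was called by DESeq2 alone, at 35.9, 27.8 and 37.0 against 68.6, 121 and 55.1 CPM (DESeq2 adjusted p = 0.00337, edgeR 0.149). Wild-type replicate 2 was again the highest.

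Lists for growth and signalling gave medians of 0.09 for DNA replication, -0.01 for mitosis, -0.08 for the mitochondrial genome, -0.06 for cholesterol synthesis, 0.18 for retinoic acid signalling, 0.07 for GDNF, FGF and KIT signalling and -0.03 for imprinted genes. Stra8, the retinoic acid target that opens meiosis, had 320, 217 and 256 CPM in Dnmt3C KO/KO and 276, 171 and 183 in wild-type. Mcm2, of the replicative helicase, had 391, 482 and 580 against 418, 367 and 518. Cytosolic ribosomal protein genes had a median of 0.24, between 0.09 and 0.35 when each library was left out, and 76 of 77 had a fold change above 0, as did 54.1% of all genes tested. None was called, and 8 separated upward, against 5.04% of all genes. Stress and immediate early genes had a median of 0.20, and the groups separated upward in 4 of 21 and downward in 1, against 5.04% and 7.08% of all genes. Among them Chac1, a glutathione-degrading target of the integrated stress response, had 2.06, 1.85 and 2.34 CPM against 0.824, 0.695 and 0.855 (log2 fold change 1.39 ± 0.31 SE, edgeR adjusted p = 0.138, DESeq2 0.00934). Asns, a second target of that response named after its values were seen, had 55.8, 58.6 and 60.8 against 47.9, 40.8 and 41.2 CPM (edgeR adjusted p = 0.385). No gene of this list but Chac1 was called by edgeR, with or without the block, or by DESeq2. Whether the response changed was not tested.

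The piRNA list had the lowest median of the pathway lists, -0.33 over 26 genes, with 9 separated downward, against 7.08% of all genes tested, and none upward. Piwil1, the PIWI protein of pachytene cells, had 13.8, 12.8 and 15.8 CPM in Dnmt3C KO/KO and 125, 538 and 49.6 in wild-type (log2 fold change -4.07 ± 0.80 SE, edgeR adjusted p = 0.098, DESeq2 0.00078). Tdrd6, a Tudor protein of the chromatoid body, had 1.05, 1.12 and 1.53 against 16, 108 and 2.89 CPM (edgeR adjusted p = 0.163, DESeq2 0.00226). The glycolysis list had a median of 0.08 over 16 genes, with 1 separated upward and 1 downward. Its only DESeq2 call, Slc2a3, a glucose transporter, had 20.3, 10.4 and 15.4 against 122, 601 and 35.6 CPM (edgeR adjusted p = 0.155, DESeq2 0.00474). Each was highest in wild-type replicate 2, and Piwil1 and Tdrd6 are also in the pachytene list, so the pachytene score contains their own values. The third DESeq2 call of the piRNA list, Nkapl, overlapped between genotypes. With that score as a covariate the median of the piRNA list turned to 0.11, and the log2 difference of Slc2a3, which is not in the score, to 0.06.

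**Figure D4:**
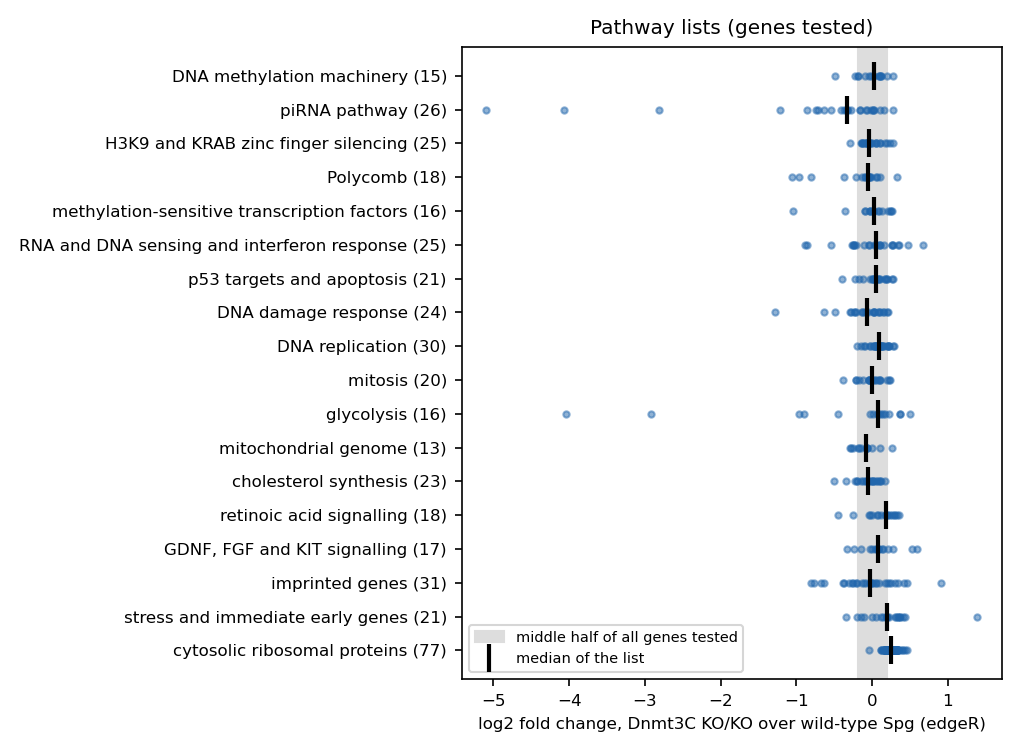
The edgeR log2 fold changes of Dnmt3C KO/KO over wild-type Spg for the genes of 18 pathway lists (rows, with the number tested); points are genes, black bars the median of a list, and the grey band the middle 50% of all genes tested, from -0.18 to 0.20. The medians lie within or near the band, the piRNA list lowest at -0.33 and the ribosomal proteins highest at 0.24, and the far left points are Tdrd6, Piwil1 and Slc2a3.

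Of 921 TE subfamilies tested 7 were called by edgeR (0.76%), all higher, 11 with the block (1.19%), all higher, and 22 by DESeq2 (2.39%), 19 higher (2.06%) and 3 lower (0.326%). An unadjusted p under 0.05 was reached by 57 (6.19%), and by 79 (8.58%) with the block. The groups did not overlap in 71 (7.71%), higher in Dnmt3C KO/KO in 51 (5.54%) and lower in 20 (2.17%). The 7 were all in the list of 13 young L1 and ERVK subfamilies that the study works with, whose median log2 fold change was 3.03, against -0.03 over all subfamilies tested. The list was chosen for the behaviour of these elements and is no independent evidence of its direction. Reads of near-identical copies are shared between subfamilies, so the values below are not independent of each other.

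Among ERVK elements, the endogenous retroviruses that include IAP, IAPLTR1_Mm, a promoter LTR, had 152, 128 and 145 CPM in Dnmt3C KO/KO and 10.3, 10.1 and 9.47 in wild-type (log2 fold change 3.83 ± 0.14 SE, edgeR adjusted p = 8.42e-05). IAPEz-int, the coding body of the main IAP type, had 1762, 1460 and 1466 against 117, 145 and 110 CPM (3.66 ± 0.17, adjusted p = 0.000213). IAPA_MM-int had the largest rise of the list, from 0.402, 0.447 and 0.834 to 47.7, 38.5 and 32.0 CPM (6.12 ± 0.37, adjusted p = 0.00126). These IAP elements rose to similar levels in all 3 libraries. RLTR10C, the LTR of MMERVK10C, had 188, 320 and 237 against 28.5, 27.6 and 35.01 CPM (3.03 ± 0.22, adjusted p = 0.0026). MMERVK10C-int and IAPLTR2_Mm were just outside the threshold, at 2.30 ± 0.23 and 2.61 ± 0.27 with an adjusted p of 0.0101 each, and were called with the block, at 0.00453 and 0.00598. IAPLTR1a_Mm, a close relative of IAPLTR1_Mm, had only 14.3, 13.6 and 14.1 against 6.997, 7.40 and 7.16 CPM (0.96 ± 0.21, adjusted p = 0.129), although its groups did not overlap.

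L1 elements differed by subfamily and by library. L1Md_T, of the youngest L1 promoter types, had 5898, 4668 and 2380 CPM in Dnmt3C KO/KO and 221, 266 and 250 in wild-type (4.13 ± 0.33, edgeR adjusted p = 0.00352). L1Md_A had 2304, 2652 and 1377 against 169, 209 and 204 CPM (3.44 ± 0.26, adjusted p = 0.00278), and L1Md_Gf 273, 210 and 101 against 8.27, 7.94 and 7.29 (4.64 ± 0.36, adjusted p = 0.00352). In each the lowest Dnmt3C KO/KO library was replicate 3, still above every wild-type library. By edgeR the calls of all 3 were lost without Dnmt3C KO/KO replicate 2 and without wild-type replicate 1, those of L1Md_T and L1Md_Gf also without wild-type replicate 2 and that of L1Md_T without wild-type replicate 3, at adjusted p-values of at most 0.0209. RLTR10C lost its call without Dnmt3C KO/KO replicate 3 (edgeR adjusted p = 0.0339) and without wild-type replicate 1 (0.0115), while the other 3 ERVK subfamilies kept theirs whichever library was left out. The older L1Md_F had 39.8, 48.5 and 26.4 against 12.6, 23.1 and 25.6 CPM (0.91 ± 0.32, adjusted p = 0.476). L1Md_F2 and L1Md_F3 overlapped between genotypes (0.58 ± 0.28 and 0.43 ± 0.25, adjusted p = 0.787 and 0.926). The 2 subfamilies outside the list that the block called were MMERGLN_LTR, a gammaretroviral LTR, at 10.1, 14.04 and 14.3 against 1.797, 2.26 and 1.90 CPM, and L1_Mm, at 154, 148 and 78.5 against 19.6, 26.4 and 25.8. All 11 lay above every wild-type Spg and Spc library, as did 34 (66.7%) of the 51 subfamilies separated upward within Spg. The 3 subfamilies that only DESeq2 called lower, LTR68, LTR102_Mam and IAPLTR3, were highest in wild-type replicate 2, as were 65.4% of all subfamilies tested. In Dnmt3C KO/KO they were below both wild-type populations, as were 13 (65.0%) of the 20 subfamilies separated downward within Spg.

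**Figure D5:**
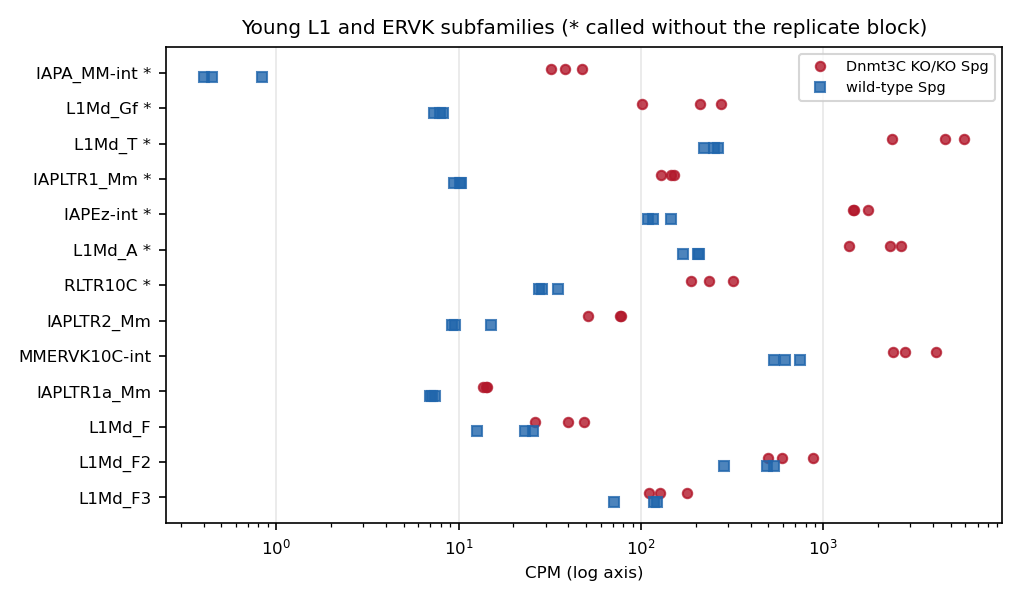
CPM of the 13 young L1 and ERVK subfamilies in each Spg library on a log axis, ordered by log2 fold change; circles are Dnmt3C KO/KO and squares wild-type. The groups are apart in all rows but the lowest, L1Md_F2 and L1Md_F3, and the Dnmt3C KO/KO points of L1Md_T spread from 2380 to 5898 while those of IAPLTR1_Mm lie between 128 and 152.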

How the data were processed

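Polyadenylated RNA of sorted cells was sequenced from stranded libraries, 3 per genotype for Spg. Per the labels and methods, the authors trimmed reads with cutadapt 4.0, aligned them to GRCm38 (STAR 2.7.3a, GENCODE M25) and assigned them with TEtranscripts, so the deposited counts are raw counts per gene and TE subfamily. The authors made the TPM of single TE copies with TElocal, over TE copies alone. Their fold changes and p-values (DESeq2 1.44.0) were not used. They left out 1 further library per genotype (RNA integrity under 8), which was not analysed here. The spermatogonia columns numbered 4 belong to the samples titled replicate 3.

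Counts were filtered (filterByExpr, minimum count 10), scaled by TMM over genes and TE subfamilies together and tested with edgeR 4.0.16 (quasi-likelihood, two-sided, Benjamini-Hochberg over all features, adjusted p under 0.01) in R 4.3.3. The methods mention littermates without tying replicate numbers to litters. The pairing is taken from the data: deviations from the group means correlated in all 3 same-numbered pairs (r = 0.676, 0.179 and 0.249), with -0.574 to 0.316 in the other pairs, where Dnmt3C KO/KO replicate 2 correlated best with wild-type replicate 3. The fit with the replicate number as a block is therefore given beside the main one where it changes a call. DESeq2 1.42.0 was an alternative, as were other scalings, filters, covariates and leaving out libraries. List scores are mean log2 CPM with a pseudocount of 0.5. Folds against libraries of at most 3 counts set 3 counts per library against the mean of the other genotype. They cover counting error only, not the spread between libraries. Gene positions and types are from GENCODE M21 on GRCm38 (99.81% of tested genes). Python 3.11.15 and matplotlib 3.10.9 were used for tables and plots. The fits were tested on simulated data.

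Named are all features called without the block, the 10 higher and 10 lower genes with the smallest blocked p among those also called by DESeq2 without overlap, list members (called, or the most abundant), Dnmt3c and the 13 young subfamilies. Slc15a2, Reg2, Apoh, Clec2g, Gml, Asns and the subfamilies outside the list of 13 were chosen after their values were seen. The members and lists were chosen with earlier results of these data known. The labels do not say which animals the libraries came from, so p-values measure only the spread between these samples. Blocked p-values do not measure all of it for genes with next to no counts in a genotype.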

Additional observations from a re-analysis of the deposited data

How the results depend on the processing

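Against 9 genes and 7 TE subfamilies called by edgeR, DESeq2 called 591 genes, of all entries, and 22 subfamilies, no filter beyond 1 count gave 144 and 13, the replicate block 108 and 11, and an adjusted p under 0.05 gave 56 and 12. With the pachytene score as a covariate 1 gene and 2 subfamilies were called, and with the Sertoli score 3 and 5, where fewer residual degrees of freedom remain. Leaving out each library gave 0 to 18 genes and 3 to 7 subfamilies. The replicate block without replicate 1, 2 or 3, added after seeing the data, called 106, 657 and 466 genes, and 9, 38 and 18 subfamilies. Scaling by library totals, by TMM without the TE rows or by DESeq2's size factors, a mean count of at least 50 and a minimum log2 fold change of 1 stayed within 1.5 times of both counts. The number of the 27 genes above both wild-type populations was 26 under either scaling.

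With the pachytene score the log2 difference turned to 0.26 for Tdrd6, 0.4 for Nkapl and 0.06 for Slc2a3, and Tdrd6 is itself in that score. Dnmt3c, not called in any fit, turned to -0.03 with the Sertoli score and ranged from -0.21 to 0.29 when each library was left out. It was -0.06 and -0.04 with the replicate block without replicate 1 and 3. The other causes were not tested. IAPLTR1_Mm and IAPEz-int were called in all 18 alternatives fitted at an adjusted p under 0.01. At 3 libraries per group, genes of a few counts can be judged only by the bounds given.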

Other observations

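Genes of the X chromosome lay slightly higher in Dnmt3C KO/KO Spg. Over 863 tested X-linked genes the median log2 fold change was 0.17 and 79.3% were above 0, against a median of 0.02 and 53% over 19704 autosomal genes. The share of all counts on the X chromosome was 3.19%, 3.01% and 2.8% in the Dnmt3C KO/KO libraries and 2.96%, 2.18% and 2.82% in the wild-type libraries, so the groups overlapped and wild-type replicate 2 was the lowest. Without that library the X-linked median was 0.09, and with the pachytene score as a covariate it was -0.01. Whether the pachytene content of wild-type replicate 2 accounts for the difference was not tested.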
